A study of Mus musculus with 6 samples.

Results

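The Z-disc structural genes examined here were *Nexn*, *Synpo2l*, *Flnc*, *Svil*, *Myot*, *Myoz2*, *Ldb3*, *Actn2*, *Nebl* and *Pdlim5*, 10 of the 13003 genes quantified in mouse hearts. They were taken by symbol, as genes of scaffold and crosslinking proteins of the Z-disc, and all 10 passed the filter on low counts, 1 CPM or more in 3 or more libraries. The Z-disc borders each sarcomere, the contractile unit of striated muscle. There α-actinin crosslinks the actin filaments of neighbouring sarcomeres, and a layer of PDZ-LIM, filamin-binding and actin-binding proteins ties this lattice to titin, to desmin filaments and to the cell membrane. In heart muscle these proteins bear the contractile force and act as a hub for mechanical signalling, and several of their human counterparts are cardiomyopathy or myofibrillar myopathy genes.

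Ventricular myocardium of 6 mice of a C57BL/6J line was profiled by RNA-seq, one library per mouse, to ask how the heart transcriptome differs in mice that lack intact Dst-b, the muscle isoform of the cytoskeletal linker dystonin. The WT group held 3 mice (replicates 1, 3 and 4) and the Dst-b mutant group held 3 mice (replicates 1, 2 and 3), all aged 14 to 19 months. The mutant mice were homozygous for a nonsense allele in an exon specific to *Dst-b*, made with CRISPR-Cas9, and no allele or treatment beyond it was given for either group. The allele is present in every cell of the body, so effects that arise in heart muscle and effects that arise elsewhere cannot be told apart. The study as a whole used male and female mice and 3 independent mutant lines. The sex and line of each sequenced mouse were not given in the sources used here. The paper left out *Xist*, *Tsix* and *Bmp10*, since extreme values in a single mouse drove their differences. Whether the sexes were balanced between the groups was not tested.

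Depth was 40693854 to 57580110 tags per library. Mice of one genotype varied by 12.3% (biological coefficient of variation). Levels are given as CPM, counts relative to library totals after TMM scaling, a correction for differences in library composition. Genotypes were compared with the two-sided quasi-likelihood test of edgeR, adjusted over 12955 genes by Benjamini-Hochberg, and every adjusted p given below is of this test unless another is named. Genes were called higher or lower where p was below 0.01 and the adjusted p below 0.1. *Dst* itself was at 473, 423 and 448 CPM in WT and at 417, 457 and 414 CPM in mutant libraries, with overlapping groups. This total sums all isoforms of a gene that carries a point change, so it does not check the labels. By qPCR the paper reports significantly less *Dst-b* mRNA in mutant hearts and unchanged *Dst-a* mRNA, isoforms that the total does not separate. The tissue label was checked with marker lists. The 8 cardiomyocyte markers summed to 98790 to 103400 CPM in WT and 94640 to 106000 CPM in mutant libraries, and 4 markers of fast skeletal fibres summed to between 4.08 and 5.62 CPM in every library. The 5 tested atrial markers did not stay even: they summed to 170 and 187 CPM in WT replicates 1 and 4, and to 175 and 178 CPM in mutant replicates 1 and 2, against 529 CPM in WT replicate 3 and 354 CPM in mutant replicate 3. None of the 5 was called by edgeR's quasi-likelihood test, limma or DESeq2, with 1 higher at an unadjusted p under 0.05 in the first. Leaving out WT replicate 3 or mutant replicate 3 removed 1 of the 5 calls described next, that of *Myot*, in either case. In bulk tissue, fewer cells of a type and less RNA per cell cannot be told apart.

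Of the 10 genes, 5 were called higher in the mutant hearts (*Nexn*, *Synpo2l*, *Flnc*, *Svil* and *Myot*), none was called lower and 5 were not called. Among all 12955 tested genes, 2.80% were called higher and 1.84% were called lower. The count of genes called lower was 0 with edgeR's exact test, limma and DESeq2 as well. Over all 12955 genes these called 317, 232 and 448 lower, so a count of 0 among 10 genes is near the share of all genes. At an unadjusted p under 0.05, 0 of the 10 were lower, and the share over all genes was not computed. In 6 of the 10 genes every mutant library lay above every WT library, against 11.4% of all tested genes. In 0 of the 10 did every mutant library lie below, against 10.5% of all genes. The median log2 fold change, mutant against WT, was 0.26 over the 10 genes and 0.00 over all genes. The 5 genes called are the 5 that the study itself names from these same libraries, so their direction is not independent evidence, and the median over the other 5 was 0.13.

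Synaptopodin 2-like (*Synpo2l*), filamin C (*Flnc*), myozenin 2 (*Myoz2*) and α-actinin 2 (*Actn2*) are a pair of called and a pair of uncalled genes, and their RefSeq promoters are shown so that start regions of both kinds can be compared. Each runs from 250 bases before to 50 bases after a transcript start in GRCm38.p6, 5′ to 3′ on the strand of the gene. The windows are chr14:20668305-20668604 on the minus strand for *Synpo2l*, chr6:29432903-29433202 on the plus strand for *Flnc*, chr3:123034938-123035237 on the minus strand for *Myoz2* and chr13:12340683-12340982 on the minus strand for *Actn2*. Capitals mark matches, on either strand, to the motifs of muscle and heart factors that were searched, namely MEF2 and CArG by their consensus, and M-CAT, GATA and NKX2-5 motifs by fixed letters. The first of these was searched as CATTCC, the motif of GATA factors as AGATAA and that of the homeobox factor NKX2-5 as AAGTG.
Synpo2l: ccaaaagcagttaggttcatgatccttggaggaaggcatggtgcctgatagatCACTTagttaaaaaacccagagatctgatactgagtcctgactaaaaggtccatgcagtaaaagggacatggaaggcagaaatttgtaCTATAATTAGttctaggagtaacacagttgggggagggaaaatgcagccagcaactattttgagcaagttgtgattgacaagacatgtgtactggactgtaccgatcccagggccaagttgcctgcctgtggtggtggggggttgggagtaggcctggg
Flnc: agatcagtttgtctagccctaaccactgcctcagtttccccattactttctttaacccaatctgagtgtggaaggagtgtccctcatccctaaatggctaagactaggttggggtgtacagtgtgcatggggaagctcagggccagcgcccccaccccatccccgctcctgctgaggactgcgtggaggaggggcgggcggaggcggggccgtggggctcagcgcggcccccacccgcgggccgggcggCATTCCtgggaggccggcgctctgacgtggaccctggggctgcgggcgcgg
Myoz2: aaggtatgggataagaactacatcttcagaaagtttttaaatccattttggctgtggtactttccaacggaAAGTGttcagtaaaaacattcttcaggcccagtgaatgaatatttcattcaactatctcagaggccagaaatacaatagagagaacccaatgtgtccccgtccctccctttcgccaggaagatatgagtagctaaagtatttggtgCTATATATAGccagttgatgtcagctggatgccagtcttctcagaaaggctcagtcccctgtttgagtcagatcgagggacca
Actn2: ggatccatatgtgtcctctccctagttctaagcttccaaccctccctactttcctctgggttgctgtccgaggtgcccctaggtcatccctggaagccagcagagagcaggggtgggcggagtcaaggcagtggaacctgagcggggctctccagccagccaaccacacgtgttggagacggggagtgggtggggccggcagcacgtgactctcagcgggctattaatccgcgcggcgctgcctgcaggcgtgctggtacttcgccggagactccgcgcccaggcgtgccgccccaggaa

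In the *Synpo2l* window a MEF2 match begins 109 bases before the start, and an NKX2-5 match lies farther upstream. The second RefSeq start of *Synpo2l* also has a MEF2 match. *Myoz2*, whose level was not called different, has a MEF2 match that begins 33 bases before its start, so MEF2 matches stood in both a called and an uncalled gene. The *Flnc* window has an M-CAT match across its start and the *Actn2* window has no match to any of the 5 motifs. Promoters were matched for 7 of the 10 genes, in 14 windows. *Nexn*, *Svil* and *Myot*, for which none was matched, are all called genes, while every uncalled gene had a window. MEF2 matches were in 3 of the 14 windows, those of *Synpo2l* and *Myoz2*, against 3.19% of all 32851 RefSeq promoters. CArG matches were in 3 windows of *Ldb3* and *Nebl*, against 1.63% of all promoters, and M-CAT matches in 3 windows of *Flnc* and *Nebl*, against 14.7%. GATA matches were in 2 windows of *Nebl*, against 11.2%, and NKX2-5 matches in 5 windows of *Flnc*, *Myoz2*, *Nebl* and *Synpo2l*, against 46.4%. Within a window no matches overlapped, but windows of neighbouring starts of *Flnc* and of *Ldb3* share bases and hold the same M-CAT and CArG match. The counts are too small to compare with the share of all promoters and are given as a description.

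*Nexn* encodes nexilin, an actin-binding protein of the Z-disc and of the junctions between the cell membrane and the sarcoplasmic reticulum. It lies on the minus strand of chromosome 3, from 152236982 to 152266350 of GRCm38.p6. Its level was 667, 670 and 646 CPM in WT replicates 1, 3 and 4, and 841, 817 and 842 CPM in mutant replicates 1, 2 and 3. The groups were far apart for the spread within them, with a coefficient of variation of 1.93% among WT and 1.73% among mutant mice. The WT mean of 661 ± 12.7 CPM stood against a mutant mean of 834 ± 14.4 CPM (SD, n = 3 each), a log2 fold change of 0.34 (SE 0.05, edgeR adjusted p = 0.0107).

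*Svil*, on chromosome 18, encodes supervillin, a gelsolin-family protein that anchors actin at the membrane and has a muscle form. Its level was 272, 279 and 290.0 CPM in WT and 346, 330 and 368 CPM in mutant replicates 1, 2 and 3. All 3 mutant libraries lay above all 3 WT libraries, and the log2 fold change was 0.31 (SE 0.06, edgeR adjusted p = 0.0312). The call was lost without mutant replicate 1 (adjusted p = 0.132) and without WT replicate 1 (adjusted p = 0.107), while the log2 fold change was 0.27 to 0.34 over the 6 fits that each left out a library.

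*Flnc*, *Synpo2l* and *Myot* had the largest estimates of change. *Flnc* (chromosome 6, 29433153 to 29461889, plus strand) encodes the muscle filamin, which crosslinks actin and links the Z-disc with the membrane. Its level was 275, 289 and 264 CPM in WT and 352, 328 and 383 CPM in mutant libraries, without overlap. The means were 276 ± 12.7 and 354 ± 27.8 CPM (SD, n = 3 each), a log2 fold change of 0.36 (SE 0.07, edgeR adjusted p = 0.0293). The call was lost without mutant replicate 1 (adjusted p = 0.127, log2 fold change 0.36).

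*Synpo2l* (chromosome 14, 20658945 to 20668354, minus strand) encodes a Z-disc protein of the synaptopodin family, whose members bind actin and α-actinin. Its level was 59.9, 54.1 and 63.2 CPM in WT and 93.3, 80.3 and 84.2 CPM in mutant libraries. The lowest mutant library stood above the highest WT library, and the mean was 1.45-fold higher in mutant hearts. The log2 fold change was 0.54 (SE 0.08, edgeR adjusted p = 0.0112). *Synpo2l* and *Nexn* were called in 6 of the 6 fits that left out a library.

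*Myot*, on chromosome 18, encodes myotilin, an immunoglobulin-domain protein that binds α-actinin, filamin C and actin. Its level was 185, 133 and 93.0 CPM in WT replicates 1, 3 and 4, and 251, 227 and 208 CPM in mutant replicates 1, 2 and 3. The groups did not overlap, but the WT mice differed from one another more than in any other of the 10 genes, with a coefficient of variation of 33.6% against 9.33% among the mutants. The log2 fold change was 0.74, the largest of the 10, and its SE of 0.19 was the largest as well (edgeR adjusted p = 0.0844). The call was lost in 4 of the 6 fits that left out a library, namely those without mutant replicate 1 (adjusted p = 0.298), mutant replicate 2 (0.14), mutant replicate 3 (0.131) and WT replicate 3 (0.189). DESeq2 did not call it either (adjusted p = 0.124).

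**Figure D1:**
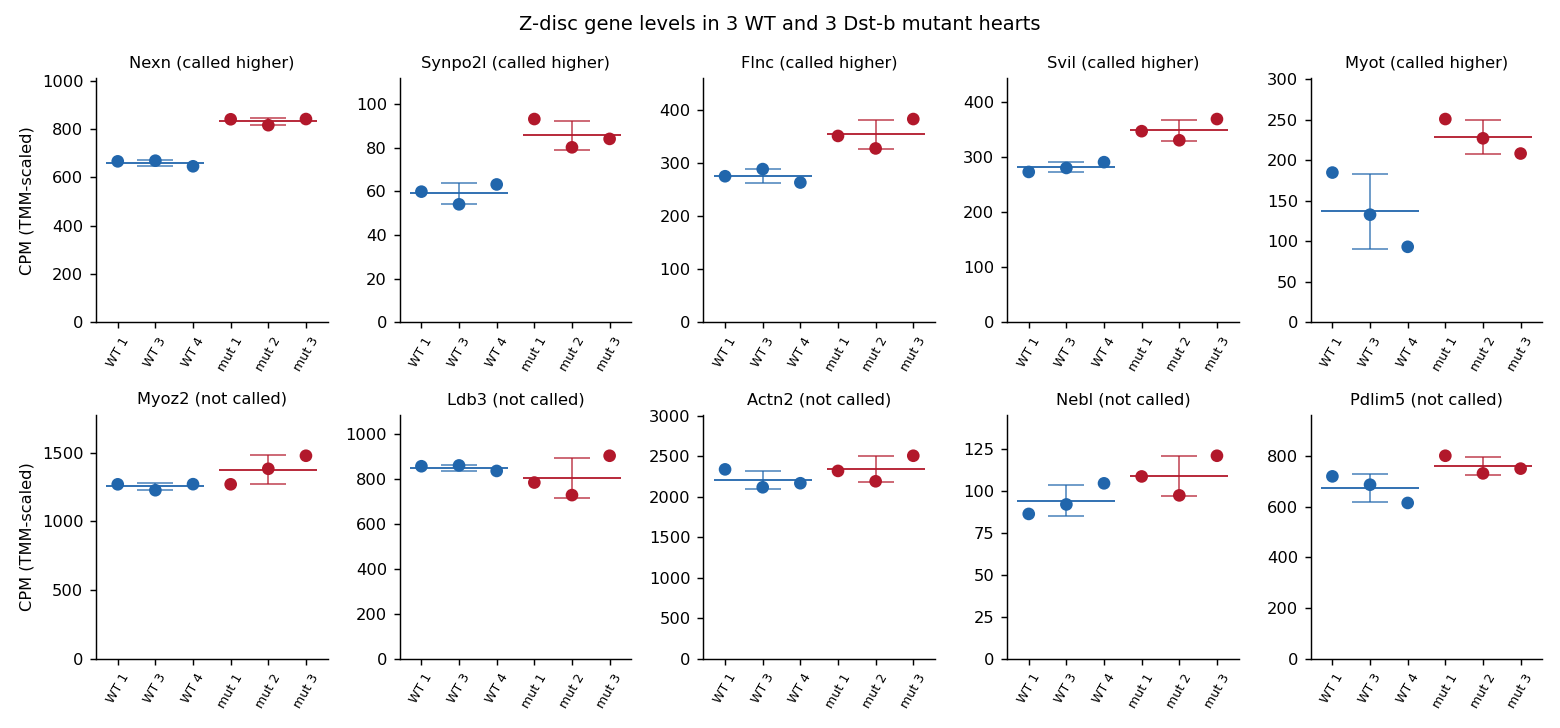
Level of each Z-disc gene in CPM (y axes from 0) in 3 WT libraries (blue) and 3 Dst-b mutant libraries (red), with the mean and SD of each group as lines. *Nexn*, with 646 to 670 CPM in WT and 817 to 842 CPM in mutant libraries, has narrow groups that lie apart, and *Myot* has the widest spread among WT mice.

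*Actn2* (chromosome 13, 12269426 to 12340732, minus strand), the crosslinker of the cardiac Z-disc, was at 2336, 2115 and 2165 CPM in WT and 2317, 2189 and 2504 CPM in mutant libraries. The groups overlapped, and the log2 fold change of 0.08 had a 95% interval of -0.06 to 0.23 (edgeR adjusted p = 0.576). *Myoz2* (chromosome 3, 123006206 to 123035003, minus strand) encodes calsarcin-1, which tethers calcineurin to α-actinin. It was at 1270, 1227 and 1271 CPM in WT and 1270, 1383 and 1478 CPM in mutant libraries. Mutant replicate 1 stood at the WT level and the other mutants above it, with a log2 fold change of 0.13 (95% interval -0.01 to 0.27, edgeR adjusted p = 0.337).

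The 2 PDZ-LIM genes of the list, whose proteins bind α-actinin through the PDZ domain and signalling kinases through the LIM domains, gave estimates of opposite sign, neither of them called. *Ldb3* (chromosome 14, 34526699 to 34590314, minus strand) encodes cypher, also named ZASP. Its level was 858, 862 and 837 CPM in WT and 785, 729 and 905 CPM in mutant libraries. The coefficient of variation was 1.56% among the WT mice, and the mutants, at 11.1%, fell on both sides of them. The log2 fold change was -0.08, the only negative estimate among the 10 (95% interval -0.25 to 0.09, edgeR adjusted p = 0.66). *Pdlim5* (chromosome 3, 142239585 to 142395719, minus strand) encodes ENH. It was at 720, 687 and 615 CPM in WT and 801, 731 and 750.1 CPM in mutant libraries. Its groups did not overlap, yet it was not called, with a log2 fold change of 0.17 (95% interval 0.02 to 0.33, edgeR adjusted p = 0.241).

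*Nebl* (chromosome 2, 17342673 to 17734949, minus strand) encodes nebulette, the cardiac relative of nebulin, which reaches from the Z-disc along the thin filament. Its level was 86.1, 91.8 and 104 CPM in WT and 108, 97.1 and 121 CPM in mutant libraries. WT replicate 4 stood above mutant replicate 2, and the log2 fold change of 0.21 had a 95% interval of -0.005 to 0.42 (edgeR adjusted p = 0.313). A p that misses the threshold does not show that the levels of these 5 genes were alike. The upper ends of their intervals, 0.09 to 0.42 on the log2 scale, bound an increase, and the interval of *Nebl* reaches past the estimates of *Nexn*, *Flnc* and *Svil*.

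**Figure D2:**
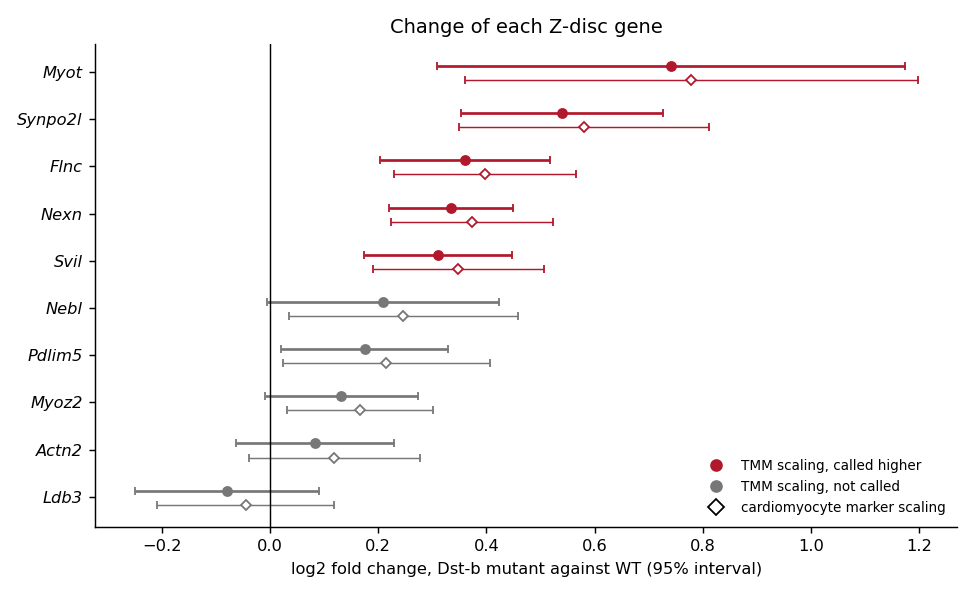
Log2 fold change of each Z-disc gene, Dst-b mutant against WT, with its 95% interval (x axis), under TMM scaling (filled circles, red where called higher and grey where not called) and when libraries are scaled to 8 cardiomyocyte markers (open diamonds). The estimates run from -0.08 for *Ldb3* to 0.74 for *Myot* under TMM scaling, and those scaled to the markers lie slightly to the right.

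Scaling the libraries to the 8 cardiomyocyte markers in place of all genes left the same 5 genes called, with log2 fold changes of 0.37 for *Nexn*, 0.58 for *Synpo2l*, 0.40 for *Flnc*, 0.35 for *Svil* and 0.78 for *Myot*. None of the 8 markers was called by edgeR's quasi-likelihood test or by DESeq2, with 1 higher and 1 lower at an unadjusted p under 0.05. Other cell types moved in part with genotype. Of 7 endothelial markers, 2 were called lower and 0 had a positive log2 fold change. At an unadjusted p under 0.05 in edgeR's quasi-likelihood test, 4 were lower and 0 higher. In 5 of the 7 all mutant libraries lay below all WT libraries, against 10.5% of all tested genes. Their sum was 1130 to 1276 CPM in WT and 1015 to 1139 CPM in mutant libraries. Of 8 fibroblast markers, 1 was called higher (*Col1a1*), and 4 were higher and 0 lower at an unadjusted p under 0.05 in the same test. Their sum was 2041 to 2316 CPM in WT and 2139 to 2504 CPM in mutant libraries. Of 6 smooth muscle markers, 1 was called higher (*Acta2*), with sums of 399 to 429 CPM in WT and 455 to 568 CPM in mutant libraries. The other 5 of these were not called and had log2 fold changes below 0, and the median of the 6 was -0.05. The part of these cell types in the Z-disc values was not tested. Of 6 tested macrophage markers none was called by edgeR, limma or DESeq2, and 0 were at an unadjusted p under 0.05.

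Ratios between genes of one library do not depend on how libraries are scaled. Relative to *Actn2*, 5 of the other 9 genes had mutant ratios that all lay above the WT ratios, and these were the 5 called genes. Of all tested genes with tags in every library, 4.26% lay above in this way and 15.0% lay below. The 5 were called on the same libraries, so the count restates their calls in large part. For *Flnc* the ratio of tags to *Actn2* was 0.118, 0.137 and 0.122 in WT and 0.152, 0.150 and 0.153 in mutant libraries. For *Synpo2l* it was 0.0257, 0.0256 and 0.0292 in WT and 0.0403, 0.0367 and 0.0336 in mutant libraries. The mutant hearts thus carried more *Flnc* and *Synpo2l* transcript per *Actn2* transcript than any WT heart. The ratio of *Ldb3* to *Actn2* was 0.367, 0.407 and 0.387 in WT and lower, at 0.339, 0.333 and 0.361, in mutant libraries, again without overlap. It was 1 of 9 ratios, which is near the 15.0% of all tested genes that lay below, and *Ldb3* itself was not called. For the 5 called genes and for *Ldb3* the exact two-sided permutation test of the ratio gave p = 0.1. That is the lowest value possible with 3 mice in each group, and no ratio could therefore pass 0.05. *Myoz2*, *Nebl* and *Pdlim5* overlapped between the groups relative to *Actn2*.

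**Figure D3:**
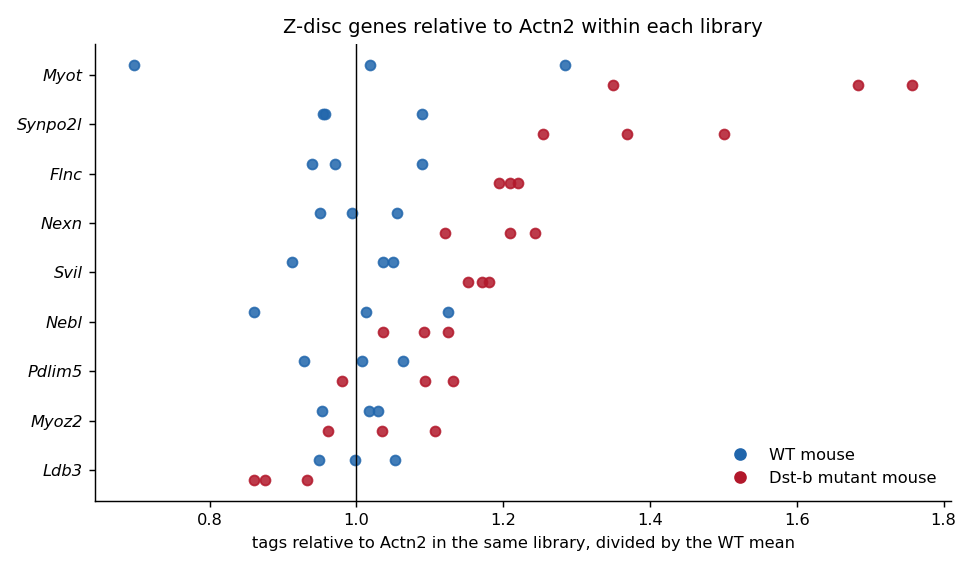
Tags of each Z-disc gene relative to *Actn2* in the same library, divided by the WT mean of that ratio (x axis, no unit), for 3 WT mice (blue) and 3 Dst-b mutant mice (red). *Myot*, *Synpo2l*, *Flnc*, *Nexn* and *Svil* lie to the right of all WT mice and *Ldb3* to the left.

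Among all 45 pairs of the 10 genes, the ratio did not overlap between the groups in 23. Among all pairs of tested genes with tags in every library, 21.8% did not overlap. It did not overlap in 18 of the 25 pairs of a called with an uncalled gene, in 2 of the 10 pairs of called genes and in 3 of the 10 pairs of uncalled genes. The called genes were chosen on these groups, so the first share follows in part from the choice. One pair was named after its values were seen. The ratio of *Nexn* to *Ldb3* was 0.777, 0.777 and 0.772 in the 3 WT hearts and 1.07, 1.12 and 0.931 in the mutant hearts. It was nearly constant among WT mice and spread out among the mutants, all of which lay above (exact two-sided permutation test, p = 0.1).

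The mice also differed in how much of the Z-disc transcripts they held. The 10 genes together took 0.669%, 0.639% and 0.631% of the tags in the WT libraries (replicates 1, 3 and 4). They took 0.730%, 0.703% and 0.749% in the mutant libraries (replicates 1, 2 and 3), all above WT. After TMM scaling the sums were 6348 to 6729 CPM in WT and 6911 to 7644 CPM in mutant libraries. The sums include the 5 called genes, so this order restates their calls in part. Among the mutants, replicate 3 had the highest level for 7 of the 10 genes and replicate 2 the lowest for 8. Among WT mice no replicate stood out in this way, each being highest for 3 or 4 genes and lowest for 2 to 5.

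Per length the 10 genes spanned a wide range. In RPKM, the deposited measure that divides by exon length, the WT mean was 598 ± 30.8 for *Actn2*, 387 ± 7.06 for *Myoz2*, 251 ± 5.13 for *Nexn*, 152 ± 2.55 for *Ldb3* and 113 ± 9.01 for *Pdlim5*. Lower down it was 61.6 ± 20.7 for *Myot*, 44.9 ± 1.42 for *Svil*, 28.8 ± 1.37 for *Flnc*, 27.7 ± 2.72 for *Nebl* and 14.4 ± 1.10 for *Synpo2l* (SD, n = 3 each). Thus α-actinin 2 and calsarcin-1 led, and *Synpo2l* was 41.6-fold below *Actn2*. Neighbours in this order overlapped in WT hearts for *Myot* and *Svil* and for *Flnc* and *Nebl*, and no other neighbours did. The order of means was the same in mutant hearts, where *Ldb3* and *Pdlim5* overlapped instead. In this order the genes called higher stood at ranks 3 (*Nexn*), 6 (*Myot*), 7 (*Svil*), 8 (*Flnc*) and 10 (*Synpo2l*). The uncalled genes stood at ranks 1 (*Actn2*), 2 (*Myoz2*), 4 (*Ldb3*), 5 (*Pdlim5*) and 9 (*Nebl*). Apart from *Nexn*, the called genes thus lay in the lower part of the order. The exon length used for RPKM covered 22.2% of the GENCODE exon union for *Nebl*, 58.0% for *Svil*, 67.0% for *Pdlim5* and 68.4% for *Nexn*, against 88.1% or more for the other 6 genes, so the levels of those 4 genes depend most on the gene model.

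**Figure D4:**
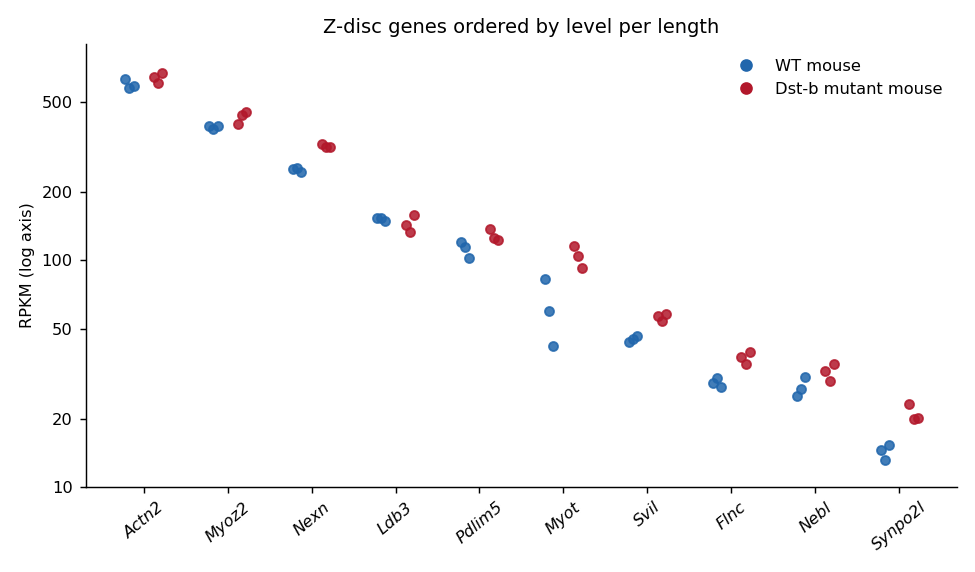
Level per length of the Z-disc genes in RPKM (log y axis), ordered by the WT mean, in 3 WT mice (blue) and 3 Dst-b mutant mice (red). The WT means run from 598 for *Actn2* to 14.4 for *Synpo2l*, and the order of means is the same in both genotypes.

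Other genes of the Z-disc and its attachments were examined from a list of 39, of which 36 were tested. Of these, 10 were called higher, 1 was called lower (*Fhl2*) and 25 were not called, with a median log2 fold change of 0.17. Of the 36, 13 are genes that the study names for the same hearts, all 10 called higher among them, and the median of the others was 0.01. In 18 genes the mutant libraries all lay above the WT libraries, against 11.4% of all tested genes, and in 2 all below, against 10.5%. The 10 genes called higher are all among the 18 and are named by the study from these same libraries. The count of 18 therefore restates those calls in part and is not independent evidence.

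*Ankrd1*, *Xirp2* and *Ankrd23* had the smallest p. *Ankrd1*, which encodes the titin-bound stress-response protein CARP, was at 1260, 1288 and 1340 CPM in WT and 3378, 2419 and 3202 CPM in mutant libraries. Every mutant stood far above the WT mice, with a log2 fold change of 1.21 (SE 0.11, edgeR adjusted p = 0.000615). *Ankrd23*, its relative, was at 596, 539 and 631 CPM in WT and 911, 909 and 850 CPM in mutant libraries (log2 fold change 0.60, SE 0.07, edgeR adjusted p = 0.00206). *Xirp2*, an actin-binding repeat protein of the Z-disc and intercalated disc that is related to the filamin C partner *Xirp1*, was at 407, 374 and 377 CPM in WT and 601, 539 and 580 CPM in mutant libraries. Its log2 fold change was 0.57 (SE 0.06, edgeR adjusted p = 0.0018).

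*Pgm5* encodes aciculin, a filamin C and dystrophin partner at attachment sites, and was at 146, 146 and 161 CPM in WT and 234, 213 and 245 CPM in mutant libraries. It was higher by 0.61 on the log2 scale (SE 0.07, edgeR adjusted p = 0.00224). *Ttn*, the gene of the giant spring protein titin, was at 1293, 1344 and 1293 CPM in WT and 1667, 2051 and 1715 CPM in mutant libraries. Here mutant replicate 2, the lowest mutant for most of the 10 genes above, was the highest, and the log2 fold change was 0.47 (SE 0.08, edgeR adjusted p = 0.0149).

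*Fhl2*, a LIM-only protein that binds titin, was called lower: it was at 2153, 2086 and 2306 CPM in WT and 1608, 1749 and 1771 CPM in mutant libraries. The groups did not overlap and the log2 fold change was -0.35 (SE 0.06, edgeR adjusted p = 0.0184). *Ankrd1*, *Ankrd23*, *Xirp2*, *Pgm5*, *Ttn* and *Fhl2*, 6 of the 11 called genes, were called in each of the 6 fits that left out a library. The others called were *Des* (desmin), *Myo18b*, *Synpo2*, *Sorbs2* and *Pdlim3*, with log2 fold changes of 0.28 to 0.57. Without mutant replicate 3, WT replicate 3 or WT replicate 4, 6 of the 36 genes were called higher in place of 10. The most abundant genes not called were *Csrp3*, with a WT mean of 1704 ± 134 against a mutant mean of 1897 ± 302 CPM, and *Tcap*, at 1677 ± 111 and 1542 ± 125 CPM (SD, n = 3 each). Both encode proteins at the titin end of the Z-disc.

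**Figure D5:**
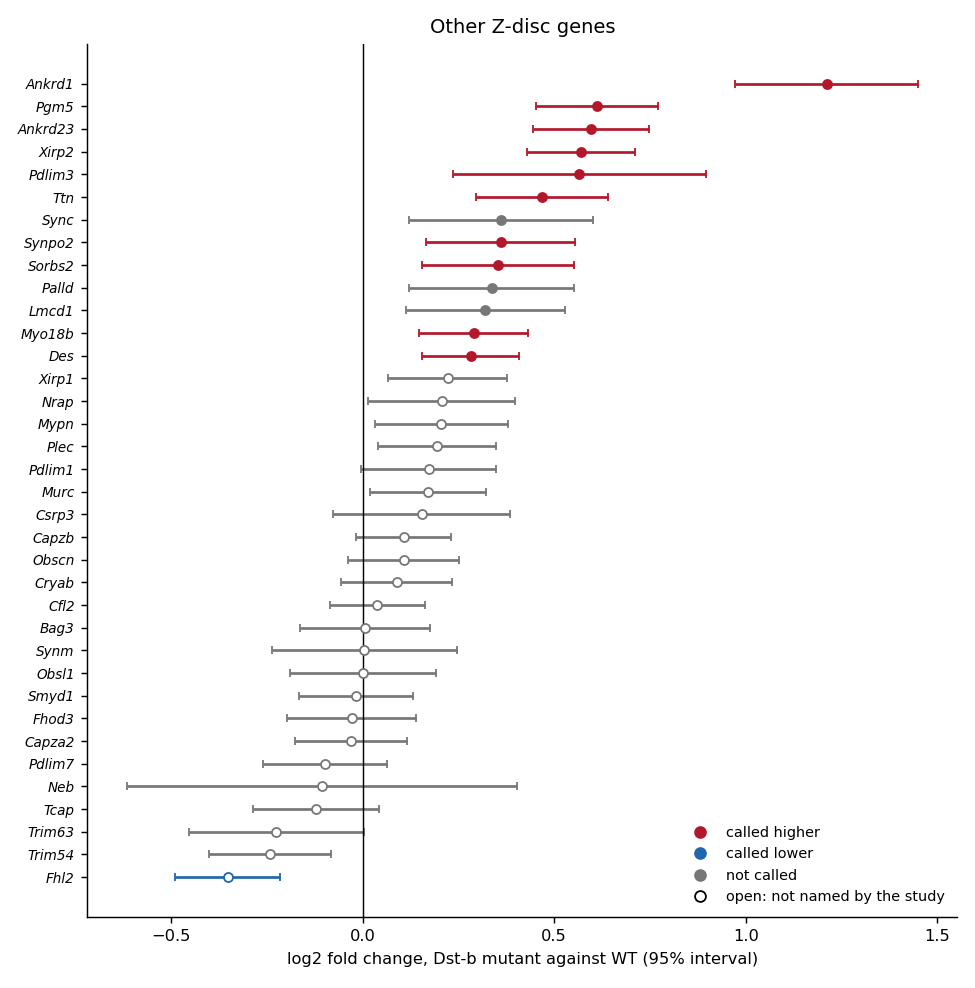
Log2 fold change with 95% interval (x axis), Dst-b mutant against WT, of 36 other Z-disc genes. Red marks 10 genes called higher, blue the 1 called lower and grey those not called, and open circles are genes that the study does not name. *Ankrd1*, at 1.21, lies farthest right, and *Fhl2*, at -0.35, farthest left.

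Relatives of the 10 genes in the same protein families numbered 24, of which 21 were tested and 2 were called higher (*Pdlim3* and *Synpo2*). None was called lower by edgeR, limma or DESeq2, with 0 lower and 5 higher at an unadjusted p under 0.05. The median log2 fold change of the 21 was 0.09. The study names 3 of them, both called genes included, and the median of the others was 0.01. *Pdlim3*, which encodes the α-actinin-binding protein ALP, was at 15.2, 22.2 and 14.7 CPM in WT and 27.2, 26.1 and 23.6 CPM in mutant libraries (log2 fold change 0.57, SE 0.15, edgeR adjusted p = 0.0849). *Synpo2*, the gene of myopodin, was at 68.6, 66.1 and 64.7 CPM in WT and 91.8, 74.1 and 90.1 CPM in mutant libraries (log2 fold change 0.36, SE 0.09, edgeR adjusted p = 0.0664). Both were called in 1 of the 6 fits that left out a library. The most abundant relatives not called were *Gsn*, the gelsolin gene, and *Nrap*, a nebulin relative, with log2 fold changes of 0.15 and 0.21.

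*Flna*, the gene of filamin A, which is found in many cell types, was not called, with a log2 fold change of -0.08. It was at 217, 205 and 185 CPM in WT and 179, 215 and 180.2 CPM in mutant libraries, with overlap. The ratio of *Flnc* to *Flna* was 1.27, 1.41 and 1.42 in WT and 1.97, 1.53 and 2.13 in mutant libraries, without overlap (exact two-sided permutation test, p = 0.1). The Benjamini-Hochberg adjusted value over the 19 exact permutation tests of ratios was 0.211 for each ratio with p = 0.1. Ratios were computed for 53 pairs of genes in all.

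Of 8 genes for chaperones of filamin C and its turnover, none was called by edgeR's quasi-likelihood test, with 2 higher and 0 lower at an unadjusted p under 0.05. *Hspb1*, a small heat shock protein, was called higher by DESeq2, edgeR's exact test and limma. It was at 62.8, 68.8 and 51.0 CPM in WT and 72.5, 81.3 and 89.9 CPM in mutant libraries, without overlap (log2 fold change 0.42, SE 0.12, edgeR adjusted p = 0.101). The most abundant of these genes were *Cryab*, the gene of αB-crystallin, and *Hspb7*, with log2 fold changes of 0.09 and -0.01 and overlapping groups.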

How the data were processed

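The authors prepared poly-A libraries from heart RNA (a TruSeq protocol in the methods, the NEBNext Ultra II Directional kit in the labels), sequenced them as 150-base pairs, aligned them by OLego to the mouse build GRCm38/mm10, and obtained gene values by Quantas. Versions are not given in the sources used here. For each gene and library the authors deposited an estimated count, in tags, and the RPKM. The names of the deposited tables speak of CPM, but the tags sum to the depth of each library and were treated as estimated counts, rounded where not whole (8.45% to 13.8% of genes). RPKM, as the authors deposited them, served only for levels per length.

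Counts were tested with edgeR 4.0.16 in R 4.3.3 (TMM, glmQLFit, glmQLFTest, genotype as the only term), on genes that reached 1 CPM in 3 or more of 6 libraries. The 3 mice of a group are separate animals, and chi-square per degree of freedom between mice of one genotype was 14.8 to 30.0, where 1 would be counting noise alone. Alternatives were other scalings (median of ratios, upper quartile, cardiomyocyte markers), filters, pseudocounts of 0.5 and 1 with limma 3.58.1, edgeR's exact test, DESeq2 1.42.0, a stricter threshold, leaving out each library and a replicate block. Positions and promoters are from RefSeq, GRCm38.p6, matched by Entrez identifier.

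The 10 genes and all lists were chosen with earlier results of these data known. Genes named from each list were every called gene, up to 6 by smallest p, and the 2 most abundant uncalled genes. Further called genes, *Flna*, *Hspb1*, *Col1a1*, *Acta2* and the ratio of *Nexn* to *Ldb3* were named after their values were seen. *Myoz1*, *Myoz3*, *Ankrd2*, *Vil1*, *Adgre1*, *Myh1*, *Myh2*, *Myh4* and *Myog* were in the lists but were not analysed here, and *Bmp10* did not pass the filter.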

Additional observations from a re-analysis of the deposited data

How the results depend on the processing

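No result reversed under any alternative. The log2 fold changes of *Nexn*, *Synpo2l*, *Myoz2*, *Ldb3*, *Actn2* and *Pdlim5* kept their direction and their side of the threshold in all 17 alternatives. Leaving out each library in turn gave 2 to 5 called Z-disc genes, with 2 without mutant replicate 1 (*Nexn* and *Synpo2l*). Over all tested genes these fits gave 124 to 302 higher and 39 to 217 lower, with 124 and 39 without mutant replicate 1. They gave 6 to 12 other Z-disc genes higher and 1 to 2 lower, 0 to 3 family relatives higher, and 0 to 1 filamin C chaperones higher. Over all genes, DESeq2 called 580 higher and 448 lower, an adjusted p under 0.05 alone 210 and 94, and marker scaling 129 lower, with a median shift of 0.04 on the log2 scale. An adjusted p under 0.05 alone left 4 of the 5 Z-disc genes, without *Myot*, and 0 relatives. DESeq2 called 2 other Z-disc genes lower. *Hspb1* made 1 chaperone higher under DESeq2, the exact test, both limma settings, marker and upper-quartile scaling, a mean CPM of at least 5, no filter and the replicate block. The cause of these shifts was not tested.

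Replicate numbers 1 and 3 occur in both genotypes, and they are not stated to pair mice. Deviations of same-numbered libraries correlated at 0.007 and -0.05, and those of differently numbered libraries at -0.09 to 0.11. So few same-numbered pairs cannot show whether the mice were paired. With a replicate block, *Nebl* was called higher (log2 fold change 0.36, adjusted p = 0.0115 from edgeR), giving 6 Z-disc genes. WT replicate 4 and mutant replicate 2 have no partner in the block, so its genotype estimates rest on replicates 1 and 3 of each group. For *Nebl*, the libraries without a partner are those whose levels made the groups overlap. The block gave 509 genes higher and 457 lower over all genes, and 4 relatives higher and 2 lower.

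The number of mice, 3 per genotype, limits the precision: the 95% intervals of the 10 log2 fold changes span 0.23 to 0.87.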
